A study of Drosophila melanogaster with 6 samples.

Results

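Respiratory complex I, NADH:ubiquinone oxidoreductase, takes electrons from NADH in the mitochondrial matrix, passes them along a chain of iron-sulphur clusters to ubiquinone and pumps protons across the inner membrane. Its peripheral arm holds an NADH-oxidising N module and a ubiquinone-reducing Q module, and its membrane arm holds the proton pumps. Most subunits are made from nuclear genes, while the pump subunits come from mitochondrial DNA, so that both genomes must be expressed to build it. The larval fat body, which stores and releases lipid, glycogen and serum proteins, uses the complex to reoxidise the NADH made by its catabolic enzymes.

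The genes examined were all those with a FlyBase symbol starting with ND- and at least 60 counts over the 6 libraries, 36 genes of 15796 in the count table. Another 3 ND- genes fell short of this minimum, and ND-30, the fly counterpart of the human core subunit NDUFS3, was not analysed here because its current identifier matched no row. Around the minimum, ND-24L had 65 counts and ND-51L2 had 40. Human counterparts are those given among the synonyms in the reference gene table, and the assignment of subunits to modules and roles follows the mammalian complex.

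RNA came from fat bodies of late 3rd instar Drosophila melanogaster larvae, all labelled as strain w1118. The AKH overexpression group (UAS-AKH/+; R4-Gal4/+) had 3 libraries and the control group (R4-Gal4/+) had 3. R4-Gal4 is a driver active in the fat body and was present in both groups, while the controls carried no UAS insertion. AKH is adipokinetic hormone, a glucagon-like peptide normally secreted by the corpora cardiaca. Its gene Akh (FBgn0004552) had 2090, 1640 and 1840 CPM in the AKH libraries against 2.26, 2.45 and 1.82 CPM in the control libraries, as the labels require. The comparison asks how making the hormone in the fat body alters that organ's transcripts.

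Libraries held 29803513 to 33150911 counts. CPM are counts scaled by TMM to a common library size, with SD over n = 3 libraries, and RPKM are the authors' values per gene length. The quasi-likelihood test of edgeR gave log2 fold changes (AKH minus control) and p-values, and a gene was called at a Benjamini-Hochberg adjusted p under 0.05 over 10705 tested genes. Whether the 3 libraries of a group derive from different larvae is not stated, and the p-values therefore cover the variation among these libraries, which may be technical. The 10 fat body markers found in the table, among them the larval serum proteins, summed to 372700 to 446300 CPM in the AKH libraries and 342100 to 483100 CPM in the control libraries. Of these 10, edgeR called Lsd-1, which encodes a perilipin of lipid droplets, and Tsf1, which encodes a transferrin, lower and 0 higher. Over all tested genes 1.91% were called lower and 1.87% higher. Lsd-1 kept its call in all 6 fits that left out 1 library, and Tsf1 only without AKH replicate 2 or control replicate 3 (adjusted p up to 0.113). Libraries also differed in RNA of other tissues. The 21 testis markers found, of which only Mst84Da was at 0 in a library, summed to 66.7 and 81.5 CPM in AKH replicates 1 and 2 and 15.8 CPM in AKH replicate 3, against 81.1 CPM in control replicate 2 and 17.8 and 18.2 CPM in control replicates 1 and 3. The 13 midgut markers summed to 3.62, 542 and 5.60 CPM in AKH replicates 1 to 3 and to 2179, 3333 and 1100 CPM in control replicates 1 to 3.

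With AKH overexpression, 32 of the 36 genes had a negative log2 fold change, and the other 4 were paralogues of low abundance. Over all tested genes 47.6% were negative. The median of the 36 was -0.25 on the log2 scale, beside 0.02 for all tested genes. No single gene passed the threshold. edgeR called 0 of 36 lower (1.91% of all tested genes were) and 0 higher (1.87%). At an adjusted p under 0.1, 4 of 36 were lower (3.72%), which were ND-39, ND-MNLL, ND-ASHI and ND-42. At an unadjusted p under 0.05, 22 of 36 were lower (10% of all tested genes) and 0 higher (8.01%). DESeq2 called 9 of 36 lower (5.65% of all tested genes), namely ND-39, ND-42, ND-MNLL, ND-ASHI, ND-51, ND-24, ND-75, ND-B14 and ND-B16.6, and limma-voom called 0 (1.69%). In 25 of 36 genes all AKH libraries lay below all control libraries (13.5% of all tested genes), and in 0 they lay above (10.8%). With scaling by library size alone, or on the RPKM scale, the groups did not overlap in 14 of 36. The share of all tested genes under those scalings is not given here, and the 13.5% belongs to TMM scaling. In bulk RNA, fewer cells of a type and less RNA per cell cannot be told apart.

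**Figure D1:**
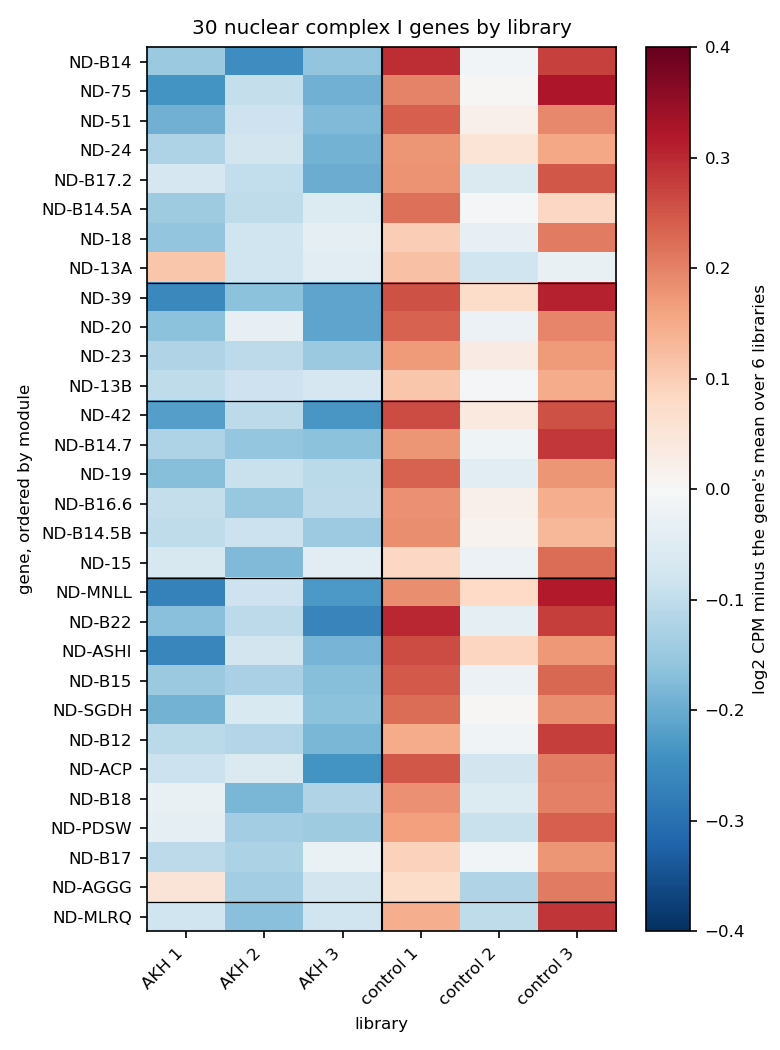
Heatmap of log2 CPM minus each gene's mean over the 6 libraries, for 30 of the 31 complex I genes of at least 5 CPM, with libraries in columns and genes in rows ordered by module (horizontal lines). The AKH columns are mostly blue (lower), control replicates 1 and 3 mostly red (higher), and control replicate 2 lies between them and is the lowest control in each gene.

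The groups did not stand apart evenly. The 32 genes that are not paralogues summed to 1361, 1381 and 1347 CPM in AKH replicates 1 to 3, against 1710, 1485 and 1747 CPM in control replicates 1 to 3. The AKH libraries were close to one another and the controls were not, since control replicate 2 stood nearer to the AKH libraries than to the other controls. Among the 31 genes of at least 5 CPM, control replicate 2 was the lowest control in 31, yet it still exceeded every AKH library in 25. Control replicates 1 and 3 both exceeded every AKH library in 30 of the 31. The SD was a median of 4.16% of the mean in the AKH libraries and 8.55% in the controls. Without control replicate 2 the median log2 fold change of the 36 genes was -0.32. In that fit 3 genes, ND-39, ND-B14 and ND-B22, were called (adjusted p = 0.0459, 0.042 and 0.0487 by edgeR). The share of all tested genes called in that fit is not given here, so these 3 calls stand without a background. Leaving out any other library gave 0 calls and medians of -0.26 to -0.22. Within the 3 libraries of high testis marker RNA (AKH replicates 1 and 2 and control replicate 2) the median was -0.07 with 26 of 36 genes negative. Within the other 3 it was -0.37 with 34 of 34 negative. These sets were chosen after seeing the data and have 1 library in an arm, so that the first restates how low control replicate 2 was. The share of all tested genes negative within each set is not given here. The 47.6% above belongs to the fit of all 6 libraries and is no background for these sets.

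Core subunits of the N module carry the electron path from NADH. ND-51 (FBgn0031771), the NDUFV1 counterpart that binds NADH and flavin mononucleotide, had 62.0, 66.8 and 62.6 CPM in the AKH libraries against 83.5, 71.8 and 80.9 CPM in the controls, a log2 fold change of -0.30 (SE 0.09, adjusted p = 0.118 by edgeR). ND-24 (FBgn0030853), the NDUFV2 counterpart with its own iron-sulphur cluster, had 38.4, 39.8 and 36.7 CPM against 47.3, 43.5 and 46.6 CPM in the controls (-0.26, SE 0.07, adjusted p = 0.111). The groups of both genes did not overlap, but the differences missed the threshold. ND-75 (FBgn0017566), the NDUFS1 counterpart and the largest subunit in mammals, had 99.7, 110 and 103 CPM against 135, 118 and 147 CPM in the controls, -0.35 (SE 0.10, adjusted p = 0.142), again without overlap.

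In the core subunits of the Q module control replicate 2 was again the lowest control. ND-20 (FBgn0030718) corresponds to NDUFS7, which lies at the ubiquinone site in mammals. ND-20 had 34.8, 38.1 and 33.7 CPM in the AKH libraries against 45.9, 38.4 and 44.6 CPM in the controls (-0.27, SE 0.09, adjusted p = 0.201 by edgeR). Control replicate 2 exceeded AKH replicate 2 only slightly. ND-23 (FBgn0017567), the NDUFS8 counterpart, whose iron-sulphur clusters lead to the ubiquinone site, had 25.8, 26.1 and 25.3 CPM against 31.6, 28.7 and 31.6 CPM in the controls (-0.25, SE 0.07, adjusted p = 0.116). In all 6 core genes measured the AKH libraries lay below the controls without overlap (13.5% of all tested genes), with a median log2 fold change of -0.27, and edgeR called 0 of the 6.

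Accessory subunits gave both the smallest and the largest p-values. ND-39 (FBgn0037001), the counterpart of the NADPH-binding Q module subunit NDUFA9, came nearest to a call. It had 94.7, 101 and 97.7 CPM in the AKH libraries against 135, 119 and 140 CPM in the controls, a log2 fold change of -0.43 (SE 0.09, 95% interval -0.64 to -0.22, adjusted p = 0.0561 by edgeR). Every control library lay well above every AKH library. ND-42 (FBgn0019957), the NDUFA10 counterpart of the membrane arm, had 62.6, 67.7 and 62.0 CPM against 87.4, 74.9 and 87.0 CPM in the controls (-0.37, SE 0.09, adjusted p = 0.0816). ND-ASHI (FBgn0029888), the NDUFB8 counterpart of the distal membrane arm, had 26.6, 30.3 and 28 CPM against 38.2, 33.8 and 35.9 CPM in the controls (-0.35, SE 0.08, adjusted p = 0.081). Neither gene overlapped between groups.

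ND-MNLL (FBgn0029971), the NDUFB1 counterpart, had 34.0, 38.7 and 35.0 CPM in the AKH libraries against 46.6, 43.3 and 51.1 CPM in the controls (-0.39, SE 0.09, adjusted p = 0.0784 by edgeR). In the reference annotation all of its exon bases (100%) are shared on the same strand with CG45089, so its count is uncertain. ND-B14 (FBgn0033570), the counterpart of NDUFA6, had 27.6, 25.7 and 27.4 CPM against 37.5, 30.3 and 36.9 CPM in the controls (-0.38, SE 0.10, adjusted p = 0.109). In mammals NDUFA6 and NDUFB9 are LYR-motif proteins that each anchor a copy of the mitochondrial acyl carrier protein NDUFAB1 in the complex. The other members of this trio, ND-B22 and ND-ACP, had log2 fold changes of -0.36 (SE 0.11) and -0.26 (SE 0.11). ND-B22 had 30.3, 31.6 and 28.3 CPM in the AKH libraries against 41.9, 33.1 and 41.2 CPM in the controls. ND-ACP had 52.5, 53.5 and 47.2 CPM against 66.2, 52.9 and 64.2 CPM in the controls. The groups overlapped in ND-ACP, where control replicate 2 fell below AKH replicate 2, and not in ND-B22. On the other strand, 26.1% of the exon bases of ND-B22 are shared with CG31855 and 12.9% of those of ND-B14 with CG12942. Among members described further on, such other-strand sharing covers 17.5% in ND-B16.6, 15.7% in ND-15 and 12.4% in ND-13A. The sources used here do not say whether counting used strand.

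**Figure D2:**
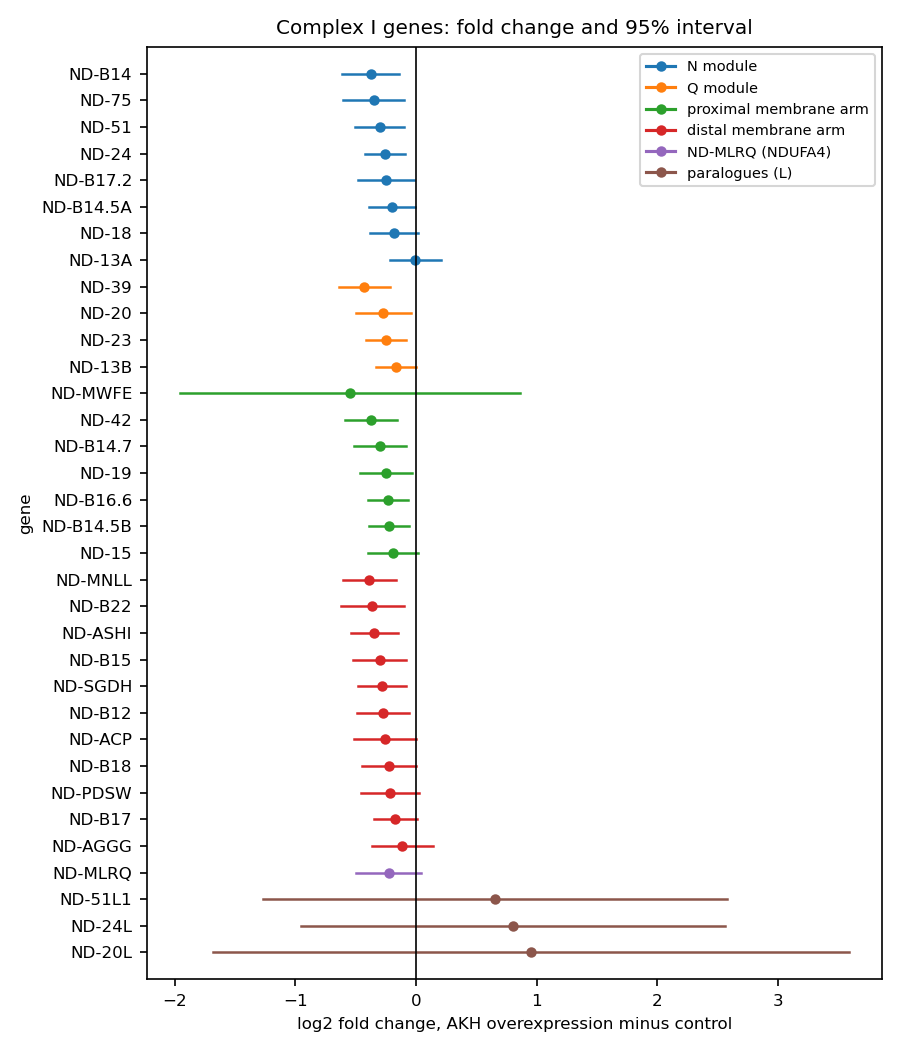
Log2 fold change (AKH overexpression minus control) of 34 of the 36 complex I genes on the x axis, with dots for the edgeR estimate and bars for its 95% interval, coloured by module. The genes of at least 5 CPM lie between -0.43 and -0.01 with short bars, while ND-MWFE and the paralogues have bars that span 0 widely.

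At the other end stood ND-13A, ND-AGGG and ND-MLRQ. ND-13A (FBgn0031684), the counterpart of the zinc-binding N module subunit NDUFS6, had 23.5, 20.6 and 21.1 CPM in the AKH libraries against 23.6, 20.6 and 21.3 CPM in the controls. The groups overlapped throughout, and the log2 fold change was -0.01 (95% interval -0.22 to 0.21, adjusted p = 0.979 by edgeR), with a sign that turned under library size scaling, among other settings. ND-AGGG (FBgn0058002), the NDUFB2 counterpart, had 35.6, 31.2 and 32.7 CPM against 36.2, 31.6 and 39.7 CPM in the controls (-0.11, 95% interval -0.36 to 0.14). ND-MLRQ (FBgn0052230) had 101, 95 and 101 CPM against 118, 99.5 and 130 CPM in the controls (-0.23, 95% interval -0.50 to 0.04). In both genes control replicate 2 fell within the AKH range.

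Counts by module are given beside 47.6% of all tested genes negative, 13.5% lower without overlap and 5.65% called lower by DESeq2. No difference between modules was tested. In the N module 8 of 8 tested genes were negative and 7 did not overlap between groups, with a median of -0.25, and DESeq2 called 4. In the Q module 5 of 5 were negative and 5 did not overlap (median -0.25), and DESeq2 called 1. In the proximal membrane arm 7 of 7 were negative and 6 did not overlap (median -0.25), including ND-B16.6, the counterpart of GRIM-19 (NDUFA13), at -0.23 (SE 0.07, 46.3, 44.5 and 46.0 CPM in the AKH libraries against 56.1, 50.1 and 54.7 CPM in the controls) and ND-B14.7, the counterpart of NDUFA11, at -0.30 (SE 0.09). DESeq2 called 2 of these 7. In the distal membrane arm 11 of 11 were negative and 7 did not overlap (median -0.28, with 2 called by DESeq2), including ND-B15 at -0.30 (SE 0.09), ND-SGDH at -0.28 (SE 0.08) and ND-B12 at -0.28 (SE 0.09). The remaining genes of at least 5 CPM, which are ND-19, ND-15, ND-B14.5B, ND-B17.2, ND-B14.5A, ND-18, ND-13B, ND-B18, ND-B17 and ND-PDSW, had log2 fold changes of -0.25 to -0.17. Among them, ND-18, the counterpart of NDUFS4, which stabilises the N module in mammals, had 26.6, 28.1 and 28.9 CPM in the AKH libraries against 31.8, 29.0 and 34.3 CPM in the controls (-0.18, SE 0.08). ND-15 (FBgn0031228), the counterpart of NDUFS5, had 51.1, 47.3 and 51.8 CPM against 56.6, 52.6 and 62.3 CPM in the controls (-0.19, SE 0.09). Neither overlapped between groups, with control replicate 2 the lowest control in both. NP15.6, the counterpart of NDUFB11, whose symbol lacks the ND- prefix, was at -0.22 (SE 0.09), within that range.

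Levels per length were compared on the RPKM scale as means over the 6 libraries. ND-MLRQ was the most abundant at 236 ± 21.2 RPKM (SD, n = 6), followed by ND-15, the NDUFS5 counterpart, at 87.2 ± 6.24 RPKM and ND-MNLL at 82.4 ± 13.04 RPKM. From ND-15 the genes descended without a break to ND-ASHI at 30.2 ± 4.99 RPKM. In the order of 36 genes, 33 of the 35 neighbouring pairs had overlapping mean ± SD intervals. The exceptions were the steps from ND-MLRQ to ND-15 and from ND-ASHI to ND-MWFE. The human counterpart of ND-MLRQ, NDUFA4, was long listed with complex I and is now known as a subunit of cytochrome c oxidase. Tested nuclear genes of that enzyme (complex IV) had a median of 159 RPKM, and the highest was COX7A at 314 RPKM. The median of the 32 complex I genes that are not paralogues was 51.7 RPKM. It was 38.6 RPKM for 4 genes of complex II, 106 RPKM for 9 of complex III and 180 RPKM for 14 of ATP synthase.

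**Figure D3:**
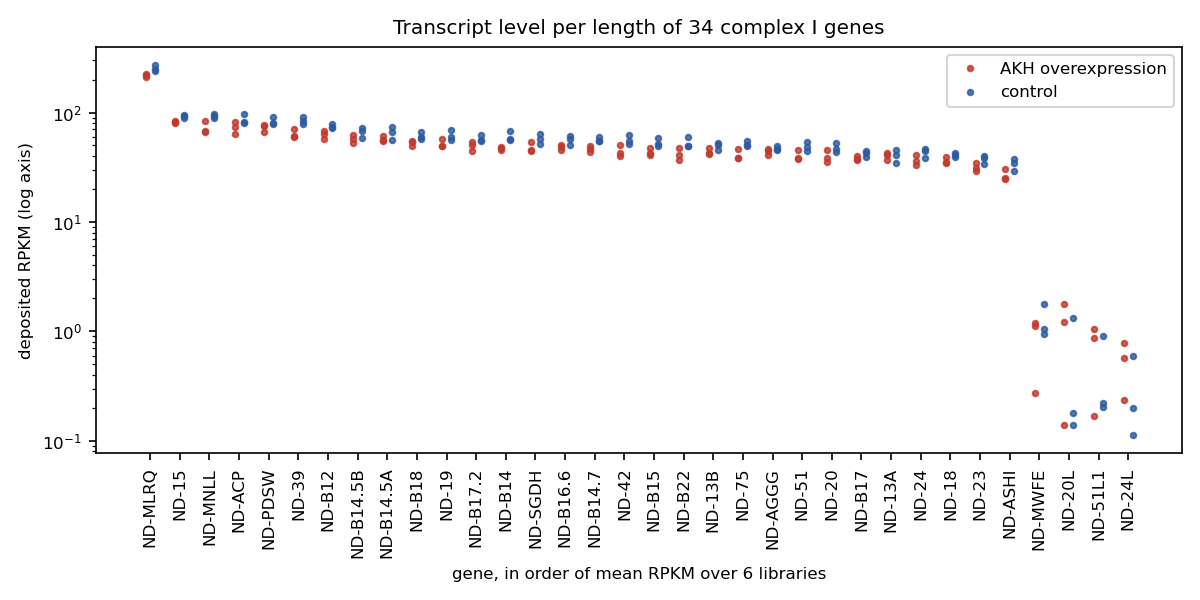
Deposited RPKM (log axis) of 34 of the 36 complex I genes in order of their mean over the 6 libraries, with a dot for each library, AKH overexpression in red and control in blue. ND-MLRQ stands above the rest at 236 RPKM, 29 genes lie between 30.2 and 87.2 RPKM, and ND-MWFE and the paralogues are near or below 1 RPKM.

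A pair of genes for structural subunits was almost without reads. ND-MWFE (FBgn0085468), the NDUFA1 counterpart, needed for assembly of the mammalian complex, had 24, 21 and 5 counts in the AKH libraries against 19, 32 and 18 counts in the controls, or 1.06 RPKM over the 6 libraries. Its log2 fold change was -0.55 (95% interval -1.96 to 0.86). ND-B8, the NDUFA2 counterpart, had 13 counts in all and was not tested. In the reference annotation 15.2% of the exon bases of ND-MWFE are shared with another gene on the same strand and 19.8% on the other strand, with Nrk and TppII as the partners. Of the exon bases of ND-B8, 15.4% are shared with Gs1l on the other strand. The part of shared exons in these low values was not tested.

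The 4 paralogues that met the count minimum are later copies of core genes, and such copies of fly respiratory genes are known for expression in the testis. ND-20L, ND-51L1 and ND-24L were 54.8 to 95.6 times less abundant than their partners in RPKM. ND-51L1 (FBgn0034251), a copy of ND-51, had 62, 69 and 11 counts in AKH replicates 1 to 3 against 13, 58 and 15 counts in control replicates 1 to 3. ND-20L (FBgn0039669), a copy of ND-20, had 29, 39 and 3 counts against 3, 28 and 4 counts in the controls. Each was high in AKH replicates 1 and 2 and control replicate 2, the libraries with high testis marker RNA, and low in the other 3. ND-24L (FBgn0036706), a copy of ND-24, had 16, 20 and 6 counts against 5, 15 and 3 counts in the controls, with the same libraries high.

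The log2 fold changes of the paralogues, 0.65 to 0.95, had 95% intervals wider than the other members', from -1.68 to 3.59 in ND-20L, and none was called. The adjusted p was 0.634 to 0.738 by edgeR for ND-24L, ND-20L and ND-51L1. Summed over the 4, CPM were 4.54, 5.74 and 0.80 in AKH replicates 1 to 3 and 1.03, 4.55 and 1.02 in control replicates 1 to 3, where the testis markers had 66.7, 81.5 and 15.8 CPM and 17.8, 81.1 and 18.2 CPM. ND-51L2 and ND-B14.5AL, under the count minimum, had 34 and 25 of their 40 and 29 counts in the 3 libraries of high testis marker RNA.

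**Figure D4:**
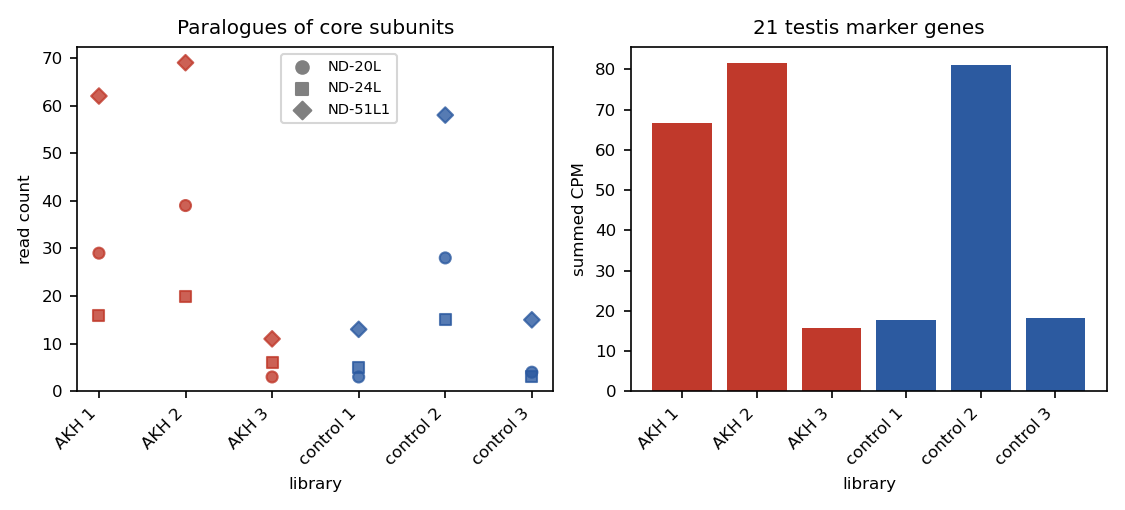
Left, read counts of the paralogues ND-20L, ND-24L and ND-51L1 in each library; right, summed CPM of 21 testis marker genes in the same libraries (AKH overexpression in red, control in blue). Counts of these 3 genes are high in AKH 1, AKH 2 and control 2, where the testis markers sum to 66.7, 81.5 and 81.1 CPM.

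The 7 complex I genes of mitochondrial DNA, which encode the proton-pumping core, were tested in the same way. All 7 were negative, and the median of their log2 fold changes was -0.54. edgeR, DESeq2 and limma-voom called 0 of them lower (1.91%, 5.65% and 1.69% of all tested genes). mt:ND5 alone had an unadjusted p under 0.05 in edgeR, where 10% of all tested genes were lower. The summed level of the 7 genes was 37.0, 44.5 and 39.4 CPM in AKH replicates 1 to 3 against 58.9, 34.6 and 78.3 CPM in control replicates 1 to 3. Control replicate 2 was thus below all AKH libraries, and the groups overlapped. mt:ND5 had 7.58, 9.55 and 9.04 CPM against 14.9, 9.79 and 20.7 CPM in the controls (-0.79, SE 0.27, adjusted p = 0.196 by edgeR). Per length the mitochondrial ND genes were low, with a median of 6.82 RPKM and a maximum of 12.02 RPKM in mt:ND2. The 6 other tested genes of mitochondrial DNA ranged from 23.2 RPKM in mt:Cyt-b to 5474 RPKM in mt:CoIII of complex IV. These 6 were also all negative (median -0.48), and 4 were lower without overlap (13.5% of all tested genes). edgeR called 0 of them lower (1.91%) and DESeq2 called 2 (5.65%).

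Of 36 tested genes of complexes II to V 34 were negative, with a median of -0.33, and in 30 the AKH libraries lay below the controls without overlap (13.5% of all tested genes). The positive genes were COX7AL at 0.01 and ATPsynepsilonL at 1.15. They had the lowest levels among the tested genes of complex IV and ATP synthase, 1.09 and 2.70 RPKM, and are kept in the counts and medians. edgeR called 4 of the 36 lower and 0 higher (1.91% and 1.87% of all tested genes), and DESeq2 called 23 lower (5.65%). The called genes were ox of complex III at -0.51, COX7A of complex IV at -0.50, ATPsynCF6 of ATP synthase at -0.44 and SdhB of complex II at -0.36. On leaving out 1 library at a time the calls of COX7A and SdhB were lost in all 6 fits. That of ATPsynCF6 held only without control replicate 2 and that of ox only without control replicate 2 or 3, with adjusted p up to 0.21 over the 4 genes. Medians were -0.27 in complex II, -0.37 in complex III, -0.32 in complex IV and -0.36 in ATP synthase. The 32 complex I genes made up 21.2% ± 0.486 of the summed CPM of complexes I to V in the AKH libraries and 20.2% ± 0.416 in the controls (SD, n = 3 each), with ranges of 20.9% to 21.8% and 19.9% to 20.7%. Complex I was thus a slightly larger share in each AKH library, a ratio within libraries that scaling does not affect.

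Other lists were set beside these. Of 5 genes for complex I assembly factors, among them CIA30 at -0.12 and sicily at -0.13, 4 were negative. None was called lower by edgeR (1.91% of all tested genes), DESeq2 (5.65%) or limma-voom (1.69%), 0 of 5 each. The number with an unadjusted edgeR p under 0.05 was also 0 (10% of all tested genes lower and 8.01% higher). The median of the 5 assembly factor genes was -0.12. In the mitochondrial biogenesis list 6 of 9 tested genes were negative, with a median of -0.08. edgeR called 1 of these 9 genes lower (1.91% of all tested genes). The called gene was clu, which encodes an RNA-binding protein needed for mitochondrial function, at -0.61 (SE 0.11, adjusted p = 0.0377 by edgeR). When single libraries were left out, its call held only without AKH replicate 2, and the adjusted p reached 0.153. Of 70 mitochondrial ribosomal protein genes 57 were negative and edgeR called 1 lower (1.91% of all tested genes), with a median of -0.12. Without overlap, 18 of the 70 were lower (13.5% of all tested genes) and 2 higher (10.8%). The called gene, mRpL55, kept its call only without AKH replicate 2 or control replicate 3 (adjusted p up to 0.0853). Of 86 cytosolic ribosomal protein genes 80 were negative, with a median of -0.32. In 71 of the 86 the AKH libraries lay below the controls without overlap (13.5% of all tested genes). edgeR called 3 of the 86 lower (RpL22, RpS20 and sta, beside 1.91% of all tested genes) and DESeq2 called 50 (5.65%). RpL22 and sta kept their calls only without control replicate 2, and RpS20 in 0 of 6 such fits (adjusted p up to 0.205 over the 3 genes).

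**Figure D5:**
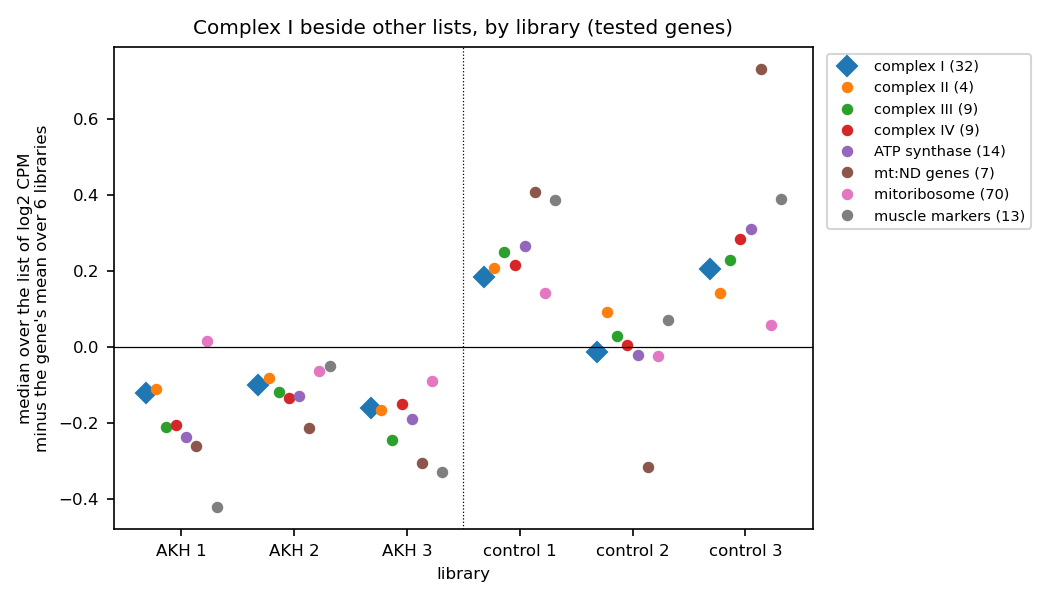
Median over each list of log2 CPM minus the gene's mean over 6 libraries, by library, for tested genes (number in brackets), with diamonds for complex I and dots for the other lists. Complex I lies at -0.12, -0.10 and -0.16 in AKH replicates 1 to 3 and at 0.18, -0.01 and 0.20 in control replicates 1 to 3. Every other list shown, including the mt:ND genes and the mitoribosome, shares the order of control replicate 2 below the other controls.

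The 13 markers found of muscle, a tissue rich in mitochondria, summed to 99.96, 117 and 119 CPM in AKH replicates 1 to 3 against 148, 125 and 159 CPM in control replicates 1 to 3, none was at 0 in any library, and 12 of 13 were negative (median -0.63). The positive marker, sls, had 27.2, 30.1 and 35.4 CPM in the AKH libraries against 24.3, 21.5 and 26.8 CPM in the controls (0.35, SE 0.13). Its groups did not overlap (10.8% of all tested genes were higher without overlap). In 10 of the 13 markers the AKH libraries lay below the controls without overlap (13.5% of all tested genes). edgeR called 2 of 13 lower (1.91% of all tested genes), the myosin light chain genes Mlc1 and Mlc2. Mlc1 lost its call in all 6 fits that left out 1 library (adjusted p up to 0.147). Mlc2 lost its call without AKH replicate 1 or 2 or control replicate 1 (adjusted p up to 0.073). The part of muscle RNA in the complex I values was not tested. Midgut markers summed to 3.62, 542 and 5.60 CPM in AKH replicates 1 to 3, where the complex I genes summed to 1361, 1381 and 1347 CPM. In control replicates 1 to 3 the midgut markers summed to 2179, 3333 and 1100 CPM, above every AKH library. Of the 13 midgut markers found, 7 were at 0 in at least 1 library. The part of midgut RNA in the complex I values was not tested either.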

How the data were processed

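The authors deposited raw read counts per gene and RPKM, counts scaled by gene length and library size, for each of the 6 libraries. Trizol and a TruSeq RNA kit were used for RNA and libraries, per the labels' protocols. The submitters' processing notes name HTSeq 0.5.4p3, DESeq 1.10.1, TopHat2 2.0.9, Bowtie2 2.0.6 and the build BDGP5, without their roles. Strand handling and annotation release are not stated in these sources. The reference annotation is of a later build and served only for names and neighbouring genes, and promoter and protein sequences were not used here.

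Counts were fitted in edgeR 4.0.16 (R 4.3.3) with the default filter, TMM scaling and no covariate. The fitting code was checked on simulated counts, which enter no reported value. All 36 members passed the filter, and individual values of 1 core gene and 1 paralogue are not reported here. Alternatives were other scalings, filters and thresholds, DESeq2 1.42.0, limma 3.58.1 on counts (voom) and on log2(RPKM + 1) or log2(RPKM + 0.1), a replicate block, and leaving out each library. Assembly factors were matched by the synonym NDUFAF. Genes given in full are the core subunits, the 5 smallest and 3 largest p (of at least 5 CPM), the 3 highest and lowest in RPKM, and the paralogues. Every other member may be named, and called genes of the other lists described are named. NP15.6, CIA30, sicily, sls, COX7AL, ATPsynepsilonL and the genes of mitochondrial DNA were chosen after their values were seen. The members and lists were chosen with earlier results of these data known. Figures were drawn with matplotlib 3.10.9.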

Additional observations from a re-analysis of the deposited data

How the results depend on the processing

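The number of complex I genes called lower, 0 of 36, became 1 with genes of at least 5 CPM only, 4 at an adjusted p under 0.1 (3.72% of all tested genes), 9 with DESeq2 and 0 to 3 when 1 library was left out. The median of -0.25 kept its sign in every fit and was -0.32 to -0.22 without 1 library, -0.37 without the 3 libraries of high testis markers and -0.065 within them. The count of 25 genes without overlap between groups was 14 with library size alone and on either RPKM scale, and 22 to 30 without 1 library. Shares over all tested genes are not given for these settings, and the 13.5% belongs to all 6 libraries with TMM scaling. All genes called lower and higher, 204 and 200, were 605 and 419 with DESeq2, 398 and 323 at an adjusted p under 0.1, 68 to 186 and 74 to 293 without 1 library (fewest lower without AKH replicate 1, fewest higher without control replicate 1), 1 and 1 without the 3 libraries of high testis markers, and 374 and 246 within them. Fits on 3 libraries have 1 library in a group, which is assumed to vary like the others. ND-13A turned positive at 0.0028 with library size alone and with genes of at least 5 CPM only, at 0.0087 and 0.0090 on the log2(RPKM + 1) and log2(RPKM + 0.1) scales, and ranged from -0.066 to 0.042 without 1 library (positive without AKH replicate 2 or 3 or control replicate 1). Within the 3 libraries of high testis markers it was at 0.13, ND-AGGG at 0.11, ND-ACP at 0.036, ND-PDSW at 0.033, ND-MLRQ at 0.011 and ND-B17.2 at 0.0058. In the other 3 libraries ND-51L1 was at -0.33. The cause was not tested. With the replicate block 0 complex I genes were called, the median was -0.25, and 231 and 199 of all genes were called lower and higher. Same-numbered libraries deviated from their group means with correlations of -0.37, 0.60 and 0.49, and AKH replicates 1, 2 and 3 correlated best with control replicates 2, 2 and 1, so the numbers are not taken as pairs. The paralogues had 65 to 228 counts each and were split within both groups between libraries of high and low testis marker RNA. They allow no difference between the groups to be read.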
